A study of Rattus norvegicus with 40 samples.

Results

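The plasma small RNA data were examined for 12 rows, namely every arm of the rat precursors miR-146a, miR-146b, miR-155, miR-21, miR-223 and miR-142. The rows were chosen by name, with earlier results of these data known. The count matrix had 752 miRNA arms, and 581 of them were read at least once across the libraries. Plasma had been taken from 20 adult male Sprague-Dawley rats, each sampled on day 2 (D2) and again on day 9 (D9), which gave 40 libraries. The blood came from the tail vein. The 4 sham rats had undergone craniotomy without impact, so the controls also carried a surgical wound. The 16 rats with traumatic brain injury (TBI) had received a lateral fluid-percussion impact, and video-EEG in the sixth month divided them into 7 with epilepsy (TBI+, TBIE in the library names) and 9 without (TBI-, TBIN in the library names). Each library came from a separate rat within a day, so the spread given below is between animals.

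These miRNAs are familiar from inflammation. miR-223 is made mainly by cells of the myeloid lineage, and miR-142 is made across blood cell lineages. miR-155 rises when macrophages and lymphocytes are activated, whereas miR-146a is induced by NF-κB. Both miR-146a and miR-146b dampen Toll-like receptor signaling through the adaptors IRAK1 and TRAF6. miR-21 is abundant in many cell types and rises with inflammation and injury. A miRNA hairpin can yield a mature strand from each side, the 5p arm and the 3p arm, and the seed, bases 2 to 8 of the strand, leads the choice of target mRNAs. In plasma, fewer releasing cells and less miRNA released per cell cannot be told apart.

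The mature sequences of the 7 arms described in full are shown because the pair miR-146a-5p and miR-146b-5p can be separated only by bases near their 3′ ends, and because the miR-142 arms turned out to move apart. Capitals mark the seed.

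rno-miR-146a-5p: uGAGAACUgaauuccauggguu
rno-miR-146b-5p: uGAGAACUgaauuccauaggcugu
rno-miR-155-5p: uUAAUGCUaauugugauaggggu
rno-miR-21-5p: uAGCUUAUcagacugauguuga
rno-miR-223-3p: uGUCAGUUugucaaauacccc
rno-miR-142-3p: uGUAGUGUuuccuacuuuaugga
rno-miR-142-5p: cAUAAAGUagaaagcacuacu

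All 12 arms matched a RefSeq entry (assembly GRCr8), as did 685 of the 752 rows. miR-146a-5p and miR-146b-5p had the same seed, and 20 of the 22 positions they could be compared over were identical. From miR-146a-5p to miR-146b-5p the substitutions were G18A and U21C, counted from the 5′ base. Reads trimmed short of these bases could be assigned to either miRNA, so the division between them is uncertain. No other matched row carried the seed of any of the 12 arms. In the annotation, Mir142 lay within Tspoap1 next to Mpo, the gene of myeloperoxidase, a granule enzyme of neutrophils. Mir155 lay within its host transcript Mir155hg, Mir223 between Msn and Vsig4, and Mir21 next to Vmp1.

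Depth was uneven between groups on D9. Libraries held 404542 to 2562083 assigned reads on D2 and 332161 to 2864893 in the TBI rats on D9, but 140636 to 358202 in the 4 sham rats on D9. Levels below are counts per 1000000 assigned reads (CPM), not corrected for length, which was 21 to 24 nt for all 12 arms. A count of 0 allows up to 3 reads, which was 21.3 CPM in the shallowest sham library, and this floor covers counting error only. One library, that of sham rat 2 on D9, stood apart from the other D9 sham libraries for several of these miRNAs, and the differences between TBI and sham rats on D9 are therefore given with and without it. miR-122-5p, a liver miRNA usual in plasma, had no assigned reads in any library, which does not show that plasma lacked it, whereas the red blood cell miRNAs miR-451-5p and miR-16-5p were present throughout.

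miR-142-5p and miR-21-5p were the most abundant members. Ranked by CPM within a D9 library, miR-142-5p was at a median place of 16.5 and miR-21-5p at 20 of 541 miRNAs. miR-223-3p followed at place 44.5, miR-146a-5p at 69.5, miR-142-3p at 82.5, miR-146b-5p at 84.5 and miR-155-5p at 113.5. All 7 arms were read in every library, and the lowest read count in a library was 18 for miR-155-5p, 690 for miR-142-5p and 1563 for miR-21-5p. Together they made up 3.69% ± 0.70 of the reads of a sham rat on D2 (SD, n = 4) and 2.85% ± 0.56 of those of a TBI rat (SD, n = 16). On D9 the shares were 3.24% ± 1.28 and 3.71% ± 0.68, and 2.83% ± 1.20 in the sham rats without sham rat 2 (SD, n = 3). The other 5 arms were scarcer. miR-21-3p and miR-223-5p were read in all 40 libraries, whereas miR-146a-3p, miR-146b-3p and miR-155-3p never exceeded 10 reads in a library.

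**Figure D1:**
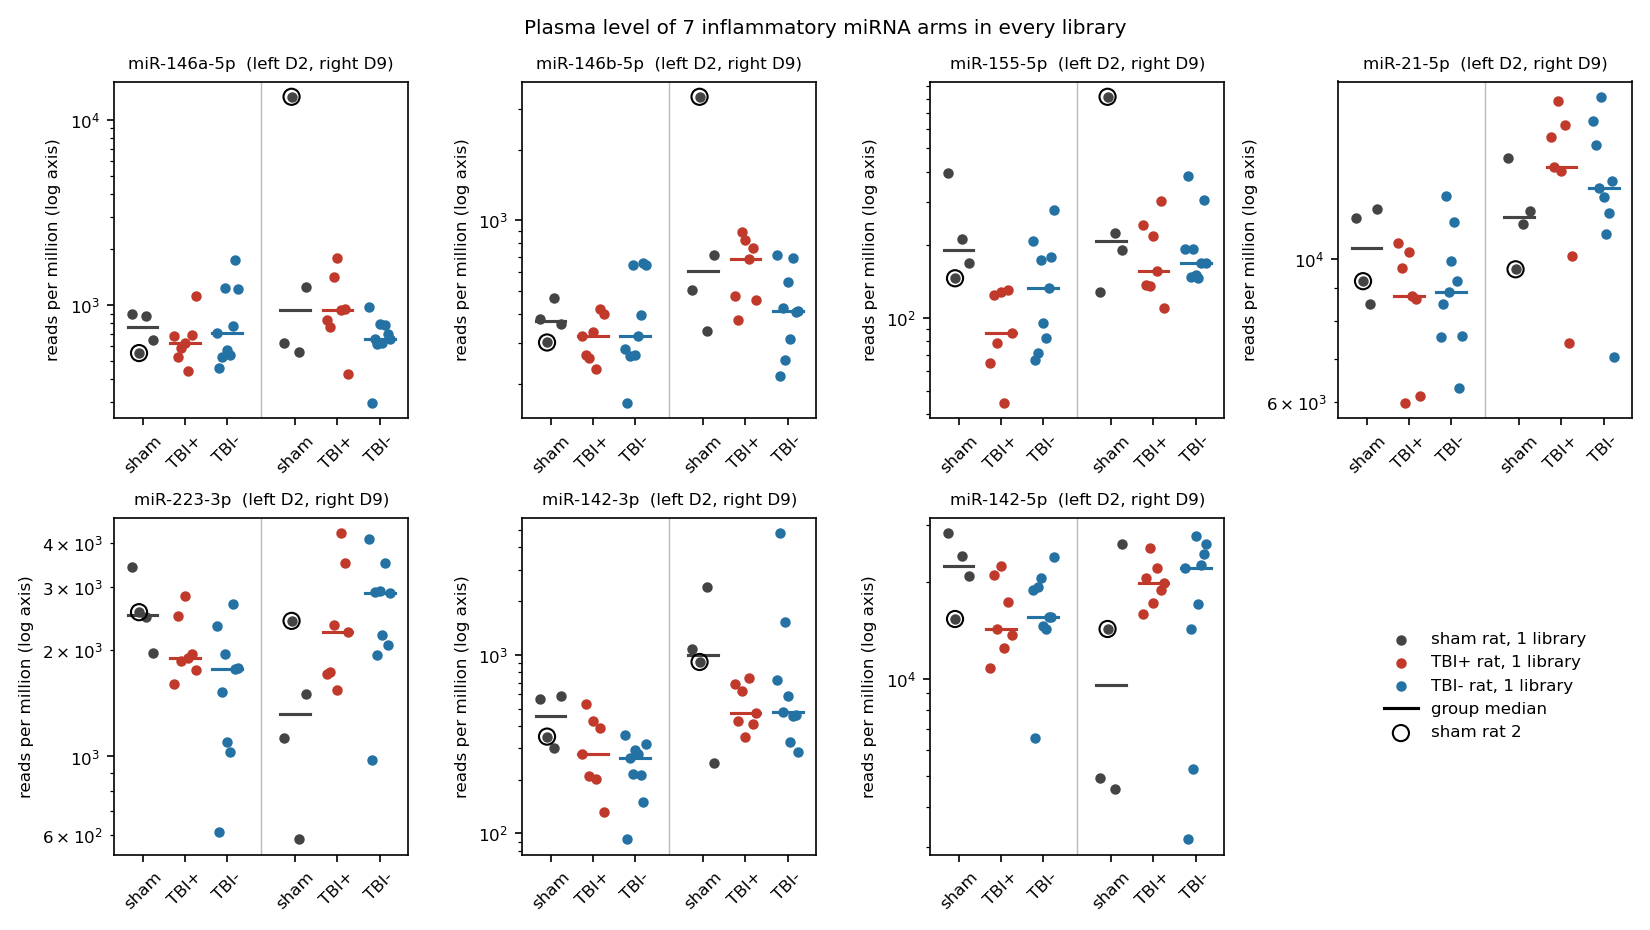
CPM (log axis) of the 7 arms in each of the 40 libraries, with D2 on the left and D9 on the right of each panel. Points are rats, bars are group medians and open rings mark sham rat 2, whose D9 library had the highest miR-146a-5p (13311 CPM), miR-146b-5p (3368 CPM) and miR-155-5p (814 CPM) of all libraries.

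The first question was whether injury changed these miRNAs on D2. None of the 12 arms passed the test between TBI and sham rats (edgeR quasi-likelihood test, Benjamini-Hochberg adjusted over the 565 miRNAs with a read that day), where 35 miRNAs or 6.19% of those tested did. DESeq2 also called none of the 12, against 13.5% of the miRNAs for which it gave an adjusted p. By edgeR miR-155-5p and miR-142-3p had an unadjusted p below 0.05. So did miR-155-3p, but it held only 9 reads in 4 of the 40 libraries, so its p rests on very few reads. The median log2 fold change over the 7 arms was -0.31, against 0.09 over all miRNAs tested.

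rno-miR-155-5p, the arm induced in activated macrophages, was at 395, 145.2, 212 and 168 CPM in the sham rats on D2. In the TBI rats it ranged from 44.5 to 279 CPM with a median of 109.2. The lowest sham rat was above 12 of the 16 TBI rats, and the other 4 were within the sham range. The fitted difference was -0.73 on the log2 scale (SE 0.33, edgeR adjusted p = 0.222). Within the single run of library numbers that held all D2 sham libraries and TBI+ rats 1 to 4, it was -1.19 (SE 0.29, edgeR adjusted p = 0.00135), where 4.58% of miRNAs were called.

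rno-miR-142-3p, the less abundant arm of the hematopoietic hairpin, was at 565, 349, 299 and 587 CPM in the sham rats. In the TBI rats it ranged from 92.6 to 531 CPM with a median of 271. Every sham rat was above 11 of the 16 TBI rats. The fitted difference was -0.60 (SE 0.27, edgeR adjusted p = 0.222), and it passed with the hemolysis index as a covariate (-0.79, SE 0.21, edgeR adjusted p = 0.0175, 7.43% of miRNAs called). That index is the log2 ratio of miR-451-5p, a red blood cell miRNA, to miR-23a-3p. rno-miR-223-3p, the myeloid arm, was at 3419, 2552, 2472 and 1960 CPM in sham rats and from 612 to 2834 CPM in TBI rats, with a fitted difference of -0.39 (SE 0.23, edgeR adjusted p = 0.375). It was below every sham rat in 12 of the 16 TBI rats.

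The other members overlapped widely on D2. rno-miR-146a-5p was at 900.2, 553, 880.1 and 651 CPM in sham rats and from 445 to 1747 CPM in TBI rats (log2 fold change 0.21, SE 0.29). rno-miR-146b-5p was at 380.3, 301, 468 and 360.4 CPM in sham rats and from 166 to 658 CPM in TBI rats (0.09, SE 0.28). rno-miR-21-5p was at 11569, 9239, 8511 and 11978 CPM in sham rats and from 5974 to 12523 CPM in TBI rats (-0.09, SE 0.18). rno-miR-142-5p was at 28314, 15331, 24103 and 20812 CPM in sham rats and from 6556 to 23880 CPM in TBI rats (-0.31, SE 0.21). miR-21-3p, the scarcer arm of miR-21, was tightly grouped at 239 to 262 CPM in the sham rats, and of the 16 TBI rats 14 were below that range and 2 above it (-0.27, SE 0.22). Within the sham run of library numbers miR-146a-5p and miR-146b-5p were both negative (-0.27 and -0.33). The TBI rats of that run were all TBI+ rats, so the set of rats changed together with the run. Which of these changed the signs was not tested.

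Lymphocyte miRNAs differed between the same groups. miR-150-5p and miR-342-3p, which are rich in lymphocytes, were both lower in TBI rats on D2 by the same test (-0.85 and -0.93, edgeR adjusted p = 0.0443 and 0.00803). Their summed level was 20359 to 44216 CPM in sham rats and 5968 to 30239 CPM in TBI rats. Their part in the miR-155-5p and miR-142-3p values was not tested. Between the same groups on D2, none of the 5 red blood cell miRNAs tested passed, nor did the endothelial miR-126a-3p.

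When the TBI rats were divided by outcome, miR-155-5p passed the test in TBI+ rats on D2. It was 44.5 to 130 CPM in the 7 TBI+ rats, all below the lowest sham rat (145.2 CPM). How many of all miRNAs separated these groups in this way was not counted. The log2 fold change against sham was -1.19 (SE 0.34, edgeR adjusted p = 0.0441), and it was 1 of 18 miRNAs called in that comparison (3.19%, with 0.885% called as lower). The call was kept without sham rat 2 (-1.33, edgeR adjusted p = 0.0375) and by DESeq2 (-1.15, adjusted p = 0.034). With the replicate number as a block it was kept too (-1.07, edgeR adjusted p = 0.0222). The same held within the sham run of library numbers, whose TBI rats were all TBI+ (-1.19, edgeR adjusted p = 0.00135). The call was lost without sham rat 1 (-0.90, adjusted p = 0.25) or without sham rat 3 (-1.23, adjusted p = 0.0697). It was also lost with the run of library numbers as a covariate (-1.14, adjusted p = 0.117). In the 9 TBI- rats it was 67.1 to 279 CPM with a log2 fold change of -0.46 (SE 0.33, edgeR adjusted p = 0.466). Between TBI- and sham rats on D2 no member passed, where 6.19% of miRNAs did.

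No member separated TBI+ from TBI- rats on either day. In the same comparison no miRNA was called on D2 or D9 by edgeR or DESeq2 (0% of 565 and of 541 by edgeR, and of the 564 and 534 to which DESeq2 gave an adjusted p), with 38 and 22 at an unadjusted p below 0.05 by edgeR. The largest differences among the 7 arms were miR-155-5p on D2 at -0.73 (95% interval -1.29 to -0.18, edgeR adjusted p = 0.49) and miR-142-3p on D9 at -0.94 (-1.85 to -0.03, edgeR adjusted p = 0.802). Leaving out sham rat 2, which changes the shared estimate of the spread, gave -0.89 (edgeR adjusted p = 0.705) for the latter. The narrowest interval on D2 was that of miR-21-5p, from -0.48 to 0.16.

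On D9 the TBI and sham rats differed in 1 member, and that call rested on 1 library. miR-146a-5p was at 626, 13311, 559 and 1262 CPM in the sham rats, and from 298 to 1807 CPM with a median of 775 in the TBI rats. Sham rat 2 was above all 19 other D9 libraries, and the other 3 sham rats were within the TBI range. With all libraries the log2 fold change was -2.13 (SE 0.44, edgeR adjusted p = 0.00213), among 19 miRNAs called of 541 (3.51%, with 2.4% called as lower). Without sham rat 2 it was 0.02 (SE 0.36, edgeR adjusted p = 0.967), and no miRNA of the 541 passed by edgeR (0%), with 70 at an unadjusted p below 0.05 and 17 called by DESeq2. DESeq2 gave miR-146a-5p no adjusted p on D9 with all libraries.

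Its seed partner was highest in the same library. miR-146b-5p was at 505, 3368, 336 and 712 CPM in sham rats on D9 and from 217 to 892 CPM in TBI rats. The log2 fold change was -1.11 (SE 0.38, edgeR adjusted p = 0.094) with all libraries and 0.02 (SE 0.35) without sham rat 2. miR-155-5p was at 127.99, 814.2, 222.7 and 189.8 CPM in sham rats and from 109.4 to 385.4 CPM in TBI rats. Its difference went from -0.67 (SE 0.35) to 0.09 (SE 0.35) when sham rat 2 was left out. The miR-146 arms rested on 2158 and 546 reads in that library, which held 162125 reads in all.

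The D9 library of sham rat 2 was also the highest of all 40 in the lymphocyte miRNAs. Their summed level was 74739 CPM in it, against 8864 to 15748 CPM in the other 3 sham rats and 9018 to 40582 CPM in the TBI rats. Its red blood cell miRNAs summed to 44922 CPM, against 13669 to 37309 CPM in the other sham rats. The part of either in the miR-146 levels was not tested. On D2 the same rat had the lowest miR-146a-5p (553 CPM), miR-146b-5p (301 CPM) and miR-155-5p (145.2 CPM) of the 4 sham rats.

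**Figure D2:**
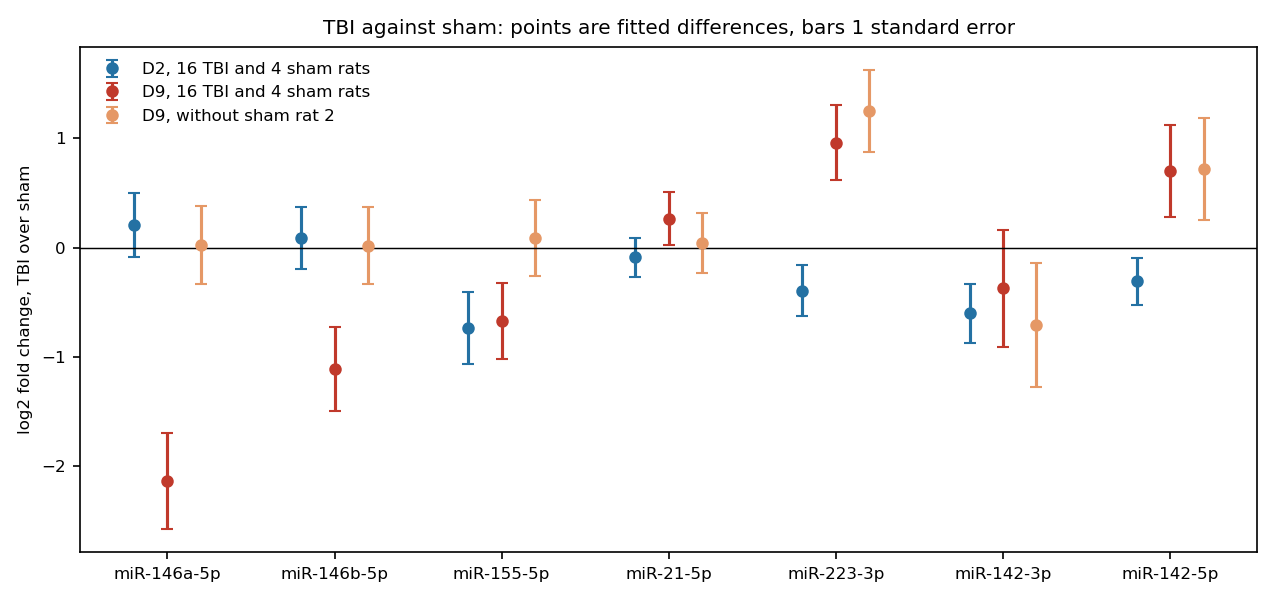
Fitted log2 fold change of TBI over sham for the 7 arms, with bars of 1 standard error. On D9 miR-146a-5p lay at -2.13 with all 4 sham rats and at 0.02 without sham rat 2, whereas miR-223-3p lay at 0.96 and 1.25.

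miR-223-3p had the opposite sign on D9 and did not pass with edgeR. It was at 1131, 2412, 584 and 1496 CPM in sham rats and from 975 to 4259 CPM with a median of 2295 in TBI rats. Every sham rat was below 7 of the 16 TBI rats, and no TBI rat was below all sham rats. The log2 fold change was 0.96 (SE 0.35, edgeR adjusted p = 0.122) with all libraries and 1.25 (SE 0.37, edgeR adjusted p = 0.0968) without sham rat 2. DESeq2 called it when sham rat 2 was left out (1.22, adjusted p = 0.0211, 5.67% of miRNAs called). Its opposite arm miR-223-5p was at 14.2 to 30.7 CPM in sham rats, on 2 to 11 reads, and from 27.5 to 83.8 CPM in TBI rats (1.22, SE 0.40, edgeR adjusted p = 0.0816, and 1.13, SE 0.46, edgeR adjusted p = 0.248 without sham rat 2).

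The remaining D9 differences did not pass either. miR-21-5p was at 14392, 9641, 11328 and 11901 CPM in sham rats and from 7045 to 17894 CPM in TBI rats (0.26, SE 0.24, edgeR adjusted p = 0.708), with a difference of 0.05 (SE 0.27) without sham rat 2. miR-142-5p was at 4906, 14273, 4548 and 26256 CPM in sham rats and from 3167 to 27748 CPM in TBI rats (0.70, SE 0.42, edgeR adjusted p = 0.457), and at 0.72 (SE 0.46) without sham rat 2. miR-142-3p was at 1074, 913, 2400 and 248 CPM in sham rats and from 286 to 4802 CPM in TBI rats (-0.37, SE 0.54, edgeR adjusted p = 0.833), and at -0.71 (SE 0.57) without sham rat 2.

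Against the outcome groups, miR-146a-5p and miR-146b-5p were lower in TBI- than in sham rats on D9 (-2.43 and -1.39, edgeR adjusted p = 0.00101 and 0.0414), among 4.81% of miRNAs called and 3.51% called as lower. No member passed in TBI+ against sham rats, where 1.85% of miRNAs did and miR-146a-5p was at -1.82 (edgeR adjusted p = 0.0532). Without sham rat 2 no member and no other miRNA passed in either comparison by edgeR (0%). DESeq2 without sham rat 2 called miR-223-3p in both (1.18 in TBI+ and 1.24 in TBI-, adjusted p = 0.0424 and 0.0262). The share of all miRNAs that DESeq2 called in either of these comparisons is not given here. For all TBI rats against sham rats on D9, which is another comparison, DESeq2 in that setting called 5.67% of 300 miRNAs. The D9 comparison also depended on the runs of library numbers, since all sham libraries were in the third run. With the run as a covariate, miR-146a-5p was at -1.60 (SE 0.60, edgeR adjusted p = 0.304). Within the third run, which also held 4 of the 7 TBI+ rats, it was at -1.55 (SE 0.47, edgeR adjusted p = 0.0594).

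The clearest changes were between the days. In the 16 TBI rats, 5 of the 12 arms were higher on D9 than on D2 and none was lower, in a 6-group fit of all 40 libraries. In that contrast 32.5% of the 581 miRNAs tested were called, 14.1% as higher and 18.4% as lower. The median log2 fold change over the 7 arms was 0.57, against 0.05 over all miRNAs. The day and anything else that differed between the sampling days cannot be told apart.

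miR-142-3p rose most, by 1.51 on the log2 scale (SE 0.29, edgeR adjusted p = 3.81e-05). It was higher on D9 in 13 of 16 TBI rats, with medians of 271 CPM on D2 and 475 CPM on D9. TBI- rat 2 had 4802 CPM on D9, far above the next rat at 1539 CPM. Without that library the rise was 0.96 (SE 0.23, edgeR adjusted p = 0.00128), and with rat as a block it was 1.17 (SE 0.20, edgeR adjusted p = 1.39e-07).

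miR-155-5p rose by 0.80 (SE 0.22, edgeR adjusted p = 0.00362), from a median of 109.2 CPM to 167.7 CPM, and was higher on D9 in 14 of 16 rats. miR-21-5p rose by 0.62 (SE 0.14, edgeR adjusted p = 0.00044), from 8820 CPM to 13456 CPM at the median, in 13 of 16 rats. miR-146b-5p rose by 0.57 (SE 0.21, edgeR adjusted p = 0.0333) in 12 of 16 rats. miR-223-3p rose by 0.50 (SE 0.18, edgeR adjusted p = 0.0263) in 13 of 16 rats. The groups of libraries overlapped for each of them. DESeq2 called 4 of these 5 (37.7% of miRNAs called) and not miR-146b-5p (0.52, adjusted p = 0.0514), which it called without sham rat 2 on D9 (0.52, adjusted p = 0.0102). miR-146a-5p (0.13, SE 0.26) and miR-142-5p (0.26, SE 0.21) did not pass, although each was higher on D9 in 11 of 16 rats.

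The same 5 arms passed with rat as a block (27.5% of miRNAs called) and without sham rat 2 on D9 (34.6%). Without the D9 library of TBI- rat 2, miR-142-3p, miR-155-5p and miR-21-5p passed (27.9%), and the same 3 passed without sham rat 1.

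Red blood cell miRNAs moved in the same direction between the days. All 5 of those tested were higher on D9 in TBI rats, with a median log2 fold change of 0.87, where 14.1% of all miRNAs were called as higher. The hemolysis index was -0.28 ± 0.64 on D2 and 1.28 ± 0.63 on D9 in TBI rats (SD, n = 16), and -0.52 ± 0.66 and 1.13 ± 0.23 in sham rats (SD, n = 4). With the index as a covariate only miR-21-5p still passed (0.79, SE 0.21, edgeR adjusted p = 0.00853), and 44 miRNAs in all were called (7.57%). The other 4 were then at 0.77 for miR-142-3p (adjusted p = 0.292), 0.59 for miR-155-5p (adjusted p = 0.29), 0.81 for miR-146b-5p (adjusted p = 0.133) and 0.36 for miR-223-3p (adjusted p = 0.573). The standard errors of these 4 grew, to 0.41 for miR-142-3p. The lymphocyte miRNA miR-150-5p and the endothelial miR-126a-3p were also higher on D9 (0.61 and 0.82, edgeR adjusted p = 0.0249 and 0.00157), and their part was not tested.

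**Figure D3:**
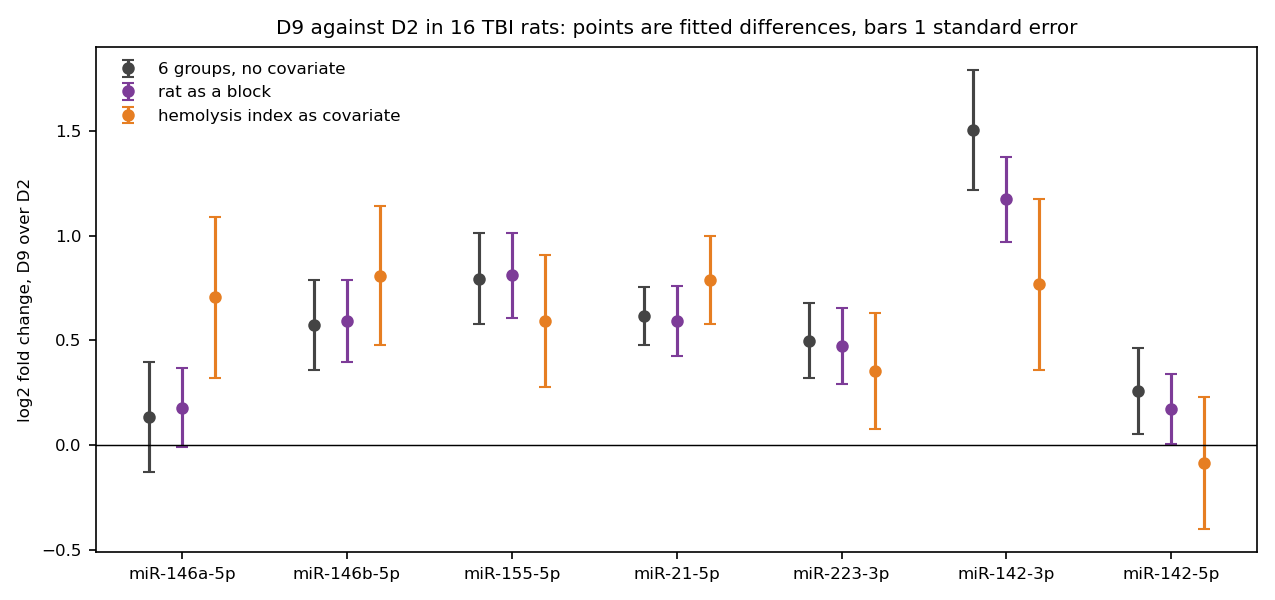
Fitted log2 fold change of D9 over D2 in the 16 TBI rats for the 7 arms, with bars of 1 standard error. The fit without a covariate and that with rat as a block gave miR-142-3p at 1.51 and 1.17, and adding the hemolysis index gave 0.77, while miR-21-5p went from 0.62 to 0.79.

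By outcome, miR-155-5p (1.09), miR-146b-5p (1.07) and miR-21-5p (0.72) were called as higher on D9 in TBI+ rats (edgeR adjusted p = 0.0179, 0.0179 and 0.0129), where 16% of miRNAs were called and 4.82% as higher. miR-155-5p and miR-146b-5p were each higher in 7 of 7 of these rats. With rat as a block miR-142-3p was called as well (0.95, edgeR adjusted p = 0.0141, 13.4% of miRNAs called), and without sham rat 2 on D9 miR-146a-5p was (0.77, edgeR adjusted p = 0.0425, 18.4%). In TBI- rats miR-142-3p (2.12), miR-223-3p (0.65) and miR-21-5p (0.51) were called (edgeR adjusted p = 4.68e-05, 0.0449 and 0.0408), where 20.1% of miRNAs were and 7.23% as higher. With rat as a block miR-21-5p did not pass in TBI- rats (0.48, adjusted p = 0.127, 17.7% of miRNAs called), and without the D9 library of TBI- rat 2 miR-142-3p was at 1.20 (edgeR adjusted p = 0.0049). Without that library miR-21-5p did not pass in TBI+ rats (0.59, adjusted p = 0.0548) or in TBI- rats (0.36, adjusted p = 0.229). Without sham rat 1 miR-142-3p was the 1 member called in TBI- rats (2.00, edgeR adjusted p = 0.000104). With the hemolysis index as a covariate none of the 3 passed in TBI- rats (miR-142-3p 1.39, miR-223-3p 0.51 and miR-21-5p 0.67, adjusted p = 0.0694, 0.418 and 0.0741, 5.34% of miRNAs called). In TBI+ rats miR-146b-5p (1.31) and miR-21-5p (0.90) then passed and miR-155-5p (0.89, adjusted p = 0.211) did not (4.99%). With the run of library numbers as a covariate none of the 3 passed in TBI+ rats (miR-155-5p 0.97, miR-146b-5p 0.91 and miR-21-5p 0.66, adjusted p = 0.0749, 0.0794 and 0.0784, 9.64%), and in TBI- rats miR-142-3p did (1.55, edgeR adjusted p = 0.00754, 10.2%). The difference between the 2 outcomes in the change from D2 to D9 was tested too and passed for no member and no miRNA by edgeR (0% of 581, 42 at an unadjusted p below 0.05), whereas DESeq2 called 1 miRNA (0.173%) that was no member. miR-146b-5p was at 1.00 (SE 0.43, edgeR adjusted p = 0.621) and miR-142-3p at -1.23 (SE 0.56, edgeR adjusted p = 0.621).

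In the sham rats miR-146a-5p (2.33, SE 0.54) and miR-146b-5p (1.66, SE 0.44) were called as higher on D9 (edgeR adjusted p = 0.00471 and 0.013), among 5.68% of miRNAs called and 2.58% called as higher. Without the D9 library of sham rat 2 they were at 0.15 and 0.49 (adjusted p = 0.971 and 0.594) and no member passed by edgeR, where 2.24% of miRNAs did, whereas DESeq2 called miR-223-3p as lower (-1.06, adjusted p = 0.0392, 11.2% of miRNAs called). miR-223-3p was lower on D9 in 4 of 4 sham rats (-0.90, SE 0.36, adjusted p = 0.134). With rat as a block neither miR-146 arm passed (0.87 and 1.06, adjusted p = 0.302 and 0.129) and miR-142-5p was called as lower (-1.16, SE 0.35, edgeR adjusted p = 0.0344, 4.99% of miRNAs called). All sham libraries were in the first run of library numbers on D2 and in the third on D9, so day and run cannot be told apart in the sham rats.

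Whether the TBI and sham difference itself changed from D2 to D9 was tested in the 6-group fit. The test was passed by 2 members, where 3.27% of 581 miRNAs did. miR-146a-5p changed by -2.20 (SE 0.59, edgeR adjusted p = 0.0289), which became 0.08 (adjusted p = 1.0) without sham rat 2 on D9 and -0.69 (adjusted p = 0.608) with rat as a block. miR-223-3p changed by 1.40 (SE 0.40, edgeR adjusted p = 0.0383). It rose in 13 of 16 TBI rats and fell in 4 of 4 sham rats. Without sham rat 2 on D9 its change was 1.85 (SE 0.44, edgeR adjusted p = 0.0144, 1.89% of miRNAs called), and with rat as a block 1.48 (SE 0.41, edgeR adjusted p = 0.0204, 2.93%). The call on miR-223-3p was lost without sham rat 1, 3 or 4, where the change was 1.18 (SE 0.48), 1.19 (SE 0.44) and 1.52 (SE 0.46), with adjusted p = 0.267, 0.169 and 0.0587. It was also lost with the run of library numbers as a covariate (0.97, SE 0.50, adjusted p = 0.57), by DESeq2 with all libraries (1.09, adjusted p = 0.0589), and with RLE, total count or miR-28-3p scaling (adjusted p = 0.113, 0.0614 and 0.422). Without sham rat 2 on D9, DESeq2 called it (1.49, SE 0.40, adjusted p = 0.00959, 6.43% of miRNAs called). miR-142-5p was at 1.12 (SE 0.46, adjusted p = 0.179) and passed with rat as a block (1.33, SE 0.39, edgeR adjusted p = 0.0249) or without sham rat 4 (1.77, edgeR adjusted p = 0.0413).

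Counts of both arms of a hairpin within a library do not depend on how libraries are scaled. On D2 there were 35.4 to 104.3 reads of miR-142-5p for each read of miR-142-3p, and the 4 sham rats (50.1, 44.0, 80.5 and 35.4) were within the TBI range of 38.8 to 104.3 except the lowest. On D9 the ratio was 4.57, 15.6, 1.89 and 106 in the sham rats and from 0.66 to 91.6 in the TBI rats. The lowest D2 value was above 3 of the 4 sham and 6 of the 16 TBI libraries of D9.

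On D9, 4 libraries had fewer than 5 reads of miR-142-5p per read of miR-142-3p, those of sham rats 1 and 3 and of TBI- rats 2 and 4. TBI- rat 2 was the only library of 40 with more miR-142-3p (1595 reads) than miR-142-5p (1052 reads). In these 4 libraries miR-142-5p was at 4906, 4548, 3167 and 5233 CPM and miR-142-3p at 1074, 2400, 4802 and 1539 CPM, so the 5p arm was low and the 3p arm high at once. They held 140636, 202059, 332161 and 491342 reads. Of the sham libraries not among these 4, that of rat 2 held 162125 reads, and that of rat 4, with a ratio of 106, held 358202. Their red blood cell miRNAs summed to 17876, 13669, 18003 and 18242 CPM, against 27932 to 74521 CPM in the other 16 D9 libraries. The part of depth and of red blood cell miRNAs was not tested.

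**Figure D4:**
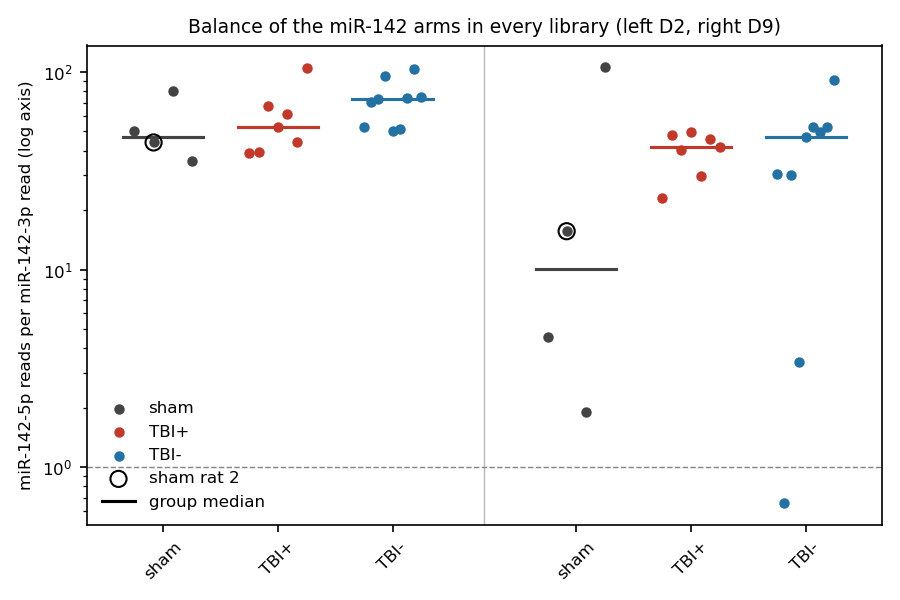
Reads of miR-142-5p per read of miR-142-3p (log axis) in each library, with group medians as bars and a dashed line at equal reads. D2 libraries lay between 35.4 and 104.3, and on D9 the ratio fell to 1.89 in a sham rat and to 0.66 in a TBI- rat while another sham rat stood at 106.

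Arm or partner ratios with enough reads were tested between TBI and sham rats, 4 on each day and 8 in all, by an exact two-sided permutation test over all choices of 4 of 20 rats (smallest possible p 0.000206). None passed after Benjamini-Hochberg adjustment. The closest was miR-223-5p over miR-223-3p on D2, with a log2 ratio of -5.28 ± 0.26 in TBI rats (SD, n = 16) and -5.82 ± 0.30 in sham rats (SD, n = 4), a difference of 0.54 (exact p = 0.00826, adjusted p = 0.066). On D9 that difference was 0.04 (exact p = 0.953). The log2 ratio of miR-142-5p to miR-142-3p was 5.97 ± 0.45 in TBI and 5.64 ± 0.50 in sham rats on D2 and 4.81 ± 1.77 and 3.45 ± 2.51 on D9 (exact p = 0.218 and 0.243). Without sham rat 2 on D9 the ratio of the miR-223 arms differed by -0.22 (exact p = 0.46) and that of the miR-142 arms by 1.54 (exact p = 0.237).

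Between the days, the ratios of the same 16 TBI rats were compared by an exact two-sided sign-flip permutation test that was chosen after the values had been seen. The log2 ratio of miR-142-5p to miR-142-3p fell by 1.16 on D9 (SD 1.91, n = 16), in 12 of 16 rats (exact p = 0.00168, adjusted over 4 ratios 0.00336). Without TBI- rat 2 it fell by 0.79 in 11 of 15 rats (exact p = 0.00336). That of miR-21-3p to miR-21-5p fell by 0.62 (SD 0.60, n = 16) in 14 of 16 rats (exact p = 0.000336, adjusted 0.00134). That of miR-223-5p to miR-223-3p fell by 0.36 in 13 of 16 rats (exact p = 0.0243, adjusted 0.0243). miR-146a-5p fell against miR-146b-5p by 0.43 in 12 of 16 rats (exact p = 0.00348, adjusted 0.00464).

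No relation between a rat's levels on D2 and D9 passed the test. Over the 16 TBI rats, Pearson's r between log2(CPM + 1) on the 2 days ranged from -0.61 for miR-142-3p to 0.45 for miR-142-5p, and none of 7 passed after adjustment. For miR-142-3p the permutation p was 0.0138 (adjusted 0.0969), with Spearman's rho at -0.50 (p = 0.0513, adjusted 0.359), and r was -0.37 without the 2 rats farthest from the D2 median. For miR-142-5p r was 0.45 (permutation p = 0.0872, adjusted 0.256) and rho 0.14 (p = 0.60, adjusted 0.772), and r was -0.35 without the 2 farthest rats.

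Across the 40 libraries the members fell into different company. The following rank correlations are descriptions, since libraries share days, groups and depth. miR-146a-5p and miR-146b-5p followed each other closely (Spearman's rho 0.83, and 0.82 over 39 libraries without sham rat 2 on D9), and miR-425-5p was the miRNA outside the members most like both (0.76 and 0.73). miR-21-5p and miR-142-3p followed each other (0.68, and 0.72 without sham rat 2 on D9), and both had miR-34c-5p and miR-147 among their closest 3 (0.78 and 0.77 for miR-21-5p, 0.86 and 0.80 for miR-142-3p). The miR-142 arms did not follow each other (0.06, and 0.11 without sham rat 2 on D9). miR-142-5p was most like miR-26a-5p (0.78) and closer to miR-223-3p (0.58) than to its own opposite arm. miR-223-3p was most like miR-222-3p (0.72), and miR-155-5p was most like miR-342-5p (0.81).

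Other miRNAs known from the innate immune response were examined as a list of 9. let-7e-5p had no assigned reads and miR-9a-5p had 2 reads in all, so 8 could be tested on D2 and 7 on D9. On D2 1 of 8 passed between TBI and sham rats, where 6.19% of all miRNAs did, namely miR-132-3p, which is also rich in neurons, at 1.30 (SE 0.29, edgeR adjusted p = 0.00392). On D9 none of 7 passed between TBI and sham rats, with or without sham rat 2. From D2 to D9 in TBI rats miR-147 (1.16) and let-7i-5p (0.88) rose and miR-132-3p (-0.68) and miR-125b-5p (-0.57) fell (edgeR adjusted p = 6.04e-06, 0.000128, 0.0106 and 0.021), and the other 4 tested did not pass, where 32.5% of all miRNAs were called. Without sham rat 2 on D9 miR-181b-5p was called as well (0.37, edgeR adjusted p = 0.0495). miR-181a-5p, the most abundant of the list, was on D2 at 22028 ± 2369 CPM in the sham rats (SD, n = 4) and at 20740 ± 6424 CPM in those with TBI (SD, n = 16), a log2 fold change of 0.04 (SE 0.23). let-7i-5p differed by 0.17 on D2 (SE 0.21) and -0.03 on D9 (SE 0.33).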

How the data were processed

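Plasma small RNA was sequenced in 40 libraries from 20 rats. Per the labels and methods, the authors trimmed reads with Trimmomatic 0.36, aligned them with Bowtie2 to Rno6 and counted reads on mature miRNAs with featureCounts, and the deposited values are raw counts per miRNA in 1 matrix. RNA was drawn from 200 µl of plasma, and no molecular identifiers were used, so floors cover counting error only. Groups, days and rat numbers came from the sample titles.

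miRNAs with at least 1 read in a comparison were scaled by TMM and tested with edgeR 4.0.16 (quasi-likelihood, R 4.3.3), with Benjamini-Hochberg adjustment over all of them and a threshold of 0.05. Days and the change between days were fitted on all 40 libraries in 6 groups. Intervals are 1.96 standard errors wide on each side. CPM is counts over assigned reads. DESeq2 1.42.0 and other scalings, covariates and left-out libraries were alternatives, and steps were tested on simulated data. Runs of consecutive library numbers (101 to 128, 132 to 152, 156 to 179) were treated as possible batches, though the labels do not say what they mark. Same-numbered libraries of the 2 days came from the same rat, by their titles. Over the 20 rats, the deviations of a rat from its group means correlated between the days at -0.32 to 0.39 (median -0.058). The rat was therefore a block in an alternative fit.

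The miRNAs and lists were chosen with earlier results of these data known. The 7 arms with enough reads were described in full, and like miRNAs were named as the 3 highest in Spearman's rho. Rats outside the range of another group were counted for the members only, not for all miRNAs. Sequences are from RefSeq (GRCr8), and no coordinates are given because the files use another build.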

Additional observations from a re-analysis of the deposited data

Results flagged for a closer look

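Outlying rats were sought in 48 groups of 4 to 10 rats. The values were the CPM of the 7 arms or the log2 ratio of miR-142-5p to miR-142-3p. Of the 48 groups, 5 held a rat far from the rest by Dixon's 95% criterion, which chance gives in about 1 of 20 groups. All 5 were groups of CPM values. On D9, sham rat 2 was highest of the 4 sham rats in miR-146a-5p (13311 CPM, next 1262), miR-146b-5p (3368 CPM, next 712) and miR-155-5p (814 CPM, next 222.7), all in 1 library. TBI- rat 2 was highest of 9 in miR-142-3p on D9 (4802 CPM, next 1539), and TBI+ rat 7 was highest of 7 in miR-146a-5p on D2 (1124 CPM, next 692).

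For 2 members the difference between TBI and sham rats itself changed from D2 to D9 in an interaction test. That test was passed by 3.27% of 581 miRNAs. It changed by -2.20 for miR-146a-5p (edgeR adjusted p = 0.0289), from 4 of 4 sham rats being within the TBI range on D2 to sham rat 2 being far above it on D9. Without sham rat 2 on D9 the change of miR-146a-5p was 0.08. The difference changed by 1.40 for miR-223-3p (edgeR adjusted p = 0.0383), which rose in 13 of 16 TBI rats and fell in 4 of 4 sham rats. The call on miR-223-3p was lost without sham rat 1, 3 or 4 and with the run of library numbers as a covariate. DESeq2 with all libraries and the RLE, total count and miR-28-3p scalings lost it too.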

How the results depend on the processing

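Of 1479 recomputed fold changes and arm ratios, 1326 counted as the same. Another 74 lost a call, 29 gained one, 6 reversed and 44 moved further without a call. The same meant that direction and side of the threshold were kept. Fold changes that changed sign uncalled counted as the same if they moved by less than 1 standard error. Arm ratios that changed sign uncalled counted as the same whatever the size. In 79 cases, with neither value called, the sign changed. DESeq2 gave no adjusted p in 4 cases, which were left out. Of 212 counts of called miRNAs, 58 moved by more than 1.5 times. Unless stated, the cause was not tested.

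Members called, out of 12, moved as follows. The share of all miRNAs called is not given for most of these settings. The counts here and in the next paragraph therefore do not show whether the members moved apart from the other miRNAs. For TBI against sham rats on D2 the count went from 0 to 1 with the hemolysis index, within the sham run of library numbers and with the replicate number as a block (miR-155-5p, -0.88, edgeR adjusted p = 0.0374). Of all miRNAs, 6.19% were called in the main fit, 7.43% with the index and 4.58% within that run. On D9 it went from 1 to 0 with DESeq2, the number block, the run as covariate and the sham run alone, with or without sham rat 2, and to 2 with RLE scaling, miR-28-3p scaling and filterByExpr. Leaving out single sham rats gave 0 to 2. For TBI+ against sham rats it went from 1 to 0 on D2 with miR-28-3p scaling and the run as covariate, and was 0 to 1 over single rats left out. On D9 it went from 0 to 1 with RLE, total count and miR-28-3p scaling and with DESeq2 without sham rat 2, and was 0 to 1 over single rats left out. For TBI- against sham rats it was 1 with the hemolysis index on D2 (0 before). On D9 it went from 2 to 1 with DESeq2, with or without sham rat 2, and with the hemolysis index. It went to 0 with the number block and the run as covariate, and was 0 to 2 over single sham rats left out. Without the D9 library of TBI- rat 2, miR-146a-5p (-2.33), miR-146b-5p (-1.30) and miR-223-5p (1.41) were called there. Their edgeR adjusted p were 0.00169, 0.0436 and 0.0426.

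From D2 to D9 in TBI rats, the 5 called became 3 with RLE and miR-28-3p scaling and 1 with the hemolysis index, and 3 to 5 over single rats left out. With the index the share of all miRNAs called went from 32.5% to 7.57%. In TBI+ rats 3 became 0 with the run as covariate. In TBI- rats 3 became 1 with RLE scaling and the run, 0 with the hemolysis index, and 1 to 3 over single rats left out. In sham rats 2 became 1 with the rat block, with or without sham rat 2, and with DESeq2 without sham rat 2, 0 with the run, and 0 to 3 over single rats left out. For the change of the TBI and sham difference 2 became 1 with DESeq2, with or without sham rat 2, and with RLE, total count and miR-28-3p scaling, 0 with the run, and 1 to 2 over single rats left out.

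miR-146a-5p reversed without sham rat 2. It was at -0.068 from D2 to D9 in sham rats with the rat block, at 0.66 for TBI against sham rats on D9 within the sham run, and at 0.27 for the change of that difference with the rat block. Without a block, leaving out single sham rats gave -2.50 to 0.023 for TBI against sham rats on D9 and -2.69 to 0.14 for the change, where leaving out the D9 library alone of sham rat 2 gave 0.079.

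Within a day, equal replicate numbers marked different rats, and the deviations of such pairs correlated at -0.46 to 0.19 on D2 and -0.45 to 0.32 on D9, so the number block above pairs rats by number only. Scaling moved the median log2 fold change over all miRNAs for TBI against sham rats on D9 from 0.30 with TMM to 0.12 with RLE, 0.18 with total counts and 0.09 with miR-28-3p. With DESeq2, which differs from edgeR in more than scaling, that median was -0.38. Depth limited the D9 sham libraries most, where miR-223-5p rested on 2 to 11 reads.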

Other observations

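Further values of the members were as follows. miR-155-3p, miR-146a-3p and miR-146b-3p held 0 to 10 reads per library, so no arm ratio was tested for them. On D9, miR-223-5p was above every sham rat in 13 of 16 TBI rats. It was higher in 61 of 64 pairs of 1 TBI and 1 sham rat, and miR-223-3p was higher in 53 of 64 pairs. The sham values of miR-223-5p rested on few reads, and neither arm passed by edgeR in this comparison. Such pairs were counted for the members only, so no share over all miRNAs stands beside them. In the D9 library of TBI- rat 2, which had the most miR-142-3p, miR-146a-5p (298 CPM) and miR-223-3p (975 CPM) were the lowest of all TBI rats on D9, whereas miR-155-5p (385 CPM) was the highest.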
